A study of Mus musculus with 49 samples.

Results

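The comparison described here sets Six2-only cells against Foxd1-only cells of the mouse metanephric mesenchyme, the kidney's founding mesenchyme, which surrounds the outgrowing ureteric bud and gives rise to nephrons and to much of the stroma. The cells were chosen by their measured levels of these genes. A cell was called Six2-only when Six2 was at 1 RPKM or more and Foxd1 was below 1 RPKM, and Foxd1-only when Foxd1 was at 1 RPKM or more and Six2 was below 1 RPKM. RPKM divides a gene's reads by its length and by the reads mapped in that cell, so levels are per length. The rule gave 18 Six2-only cells and 15 Foxd1-only cells, together 33 of the 49 cells of the study. Another 9 cells had both genes at 1 RPKM or more and 7 cells had neither. Every cell was taken at 11.5 days post coitum (Theiler stage 19) from embryos of mixed background that carried the transgene Tg(Crym-EGFP)82Gsat, in which Crym regulatory DNA drives EGFP. The dissection followed the fluorescence and also took a few cells from outside the labelled area. Sex is given as both, no treatment of the embryos is given, and the labels draw no line between the groups, which rest on the measured Six2 and Foxd1 levels alone. No embryo or litter is named for any cell, so all cells count as 1 sample. No test was therefore possible, no p-values or standard errors were computed, and the cells are described by their values, lowest to highest.

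Six2 encodes a homeodomain transcription factor that keeps nephron progenitors of the cap mesenchyme in a self-renewing state. Foxd1 encodes a forkhead transcription factor of the cortical stroma, whose descendants include interstitial fibroblasts, mesangial cells and pericytes. The progenitors secrete Gdnf, which draws out the ureteric bud, and the stroma is known to influence both through retinoic acid and cell surface signals such as Fat4.

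Six2 and Foxd1 chose the groups, so their own values are a description. Six2 had a lowest level of 2.24, a median of 49.2 and a highest level of 109 RPKM in Six2-only cells, and 0 to 0.238 RPKM in Foxd1-only cells. Foxd1 ran from 0 to 0.752 RPKM in Six2-only cells, and had a lowest level of 1.12, a median of 30.3 and a highest level of 60.1 RPKM in Foxd1-only cells. The limit set the groups. Foxd1 was above 0 but below 1 RPKM in 7 of 18 Six2-only cells, and with the limit at 0.1 RPKM there were 12 Six2-only cells, 16 Foxd1-only cells, 20 cells with both genes and 1 with neither. Just inside the limit of 1 RPKM were cells 5 and 28 with Six2 at 2.24 and 2.25 RPKM and cell 14 with Foxd1 at 1.12 RPKM, and Six2-only cell 34 had the highest Foxd1 of its group at 0.752 RPKM. Just outside it was cell 45, with Six2 at 0.675 and Foxd1 at 0.867 RPKM, which counts as having neither, and the nearest cell with both genes was cell 15, with Foxd1 at 1.81 RPKM. Amplification from so little RNA can miss transcripts, so a value of 0 does not show absence. Of 10 housekeeping genes, 7 to 10 reached 1 RPKM per Six2-only cell and 8 to 10 per Foxd1-only cell, with medians of 9. Tbp, a member of that list, reached 1 RPKM in 10 of 18 Six2-only and 6 of 15 Foxd1-only cells.

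**Figure D1:**
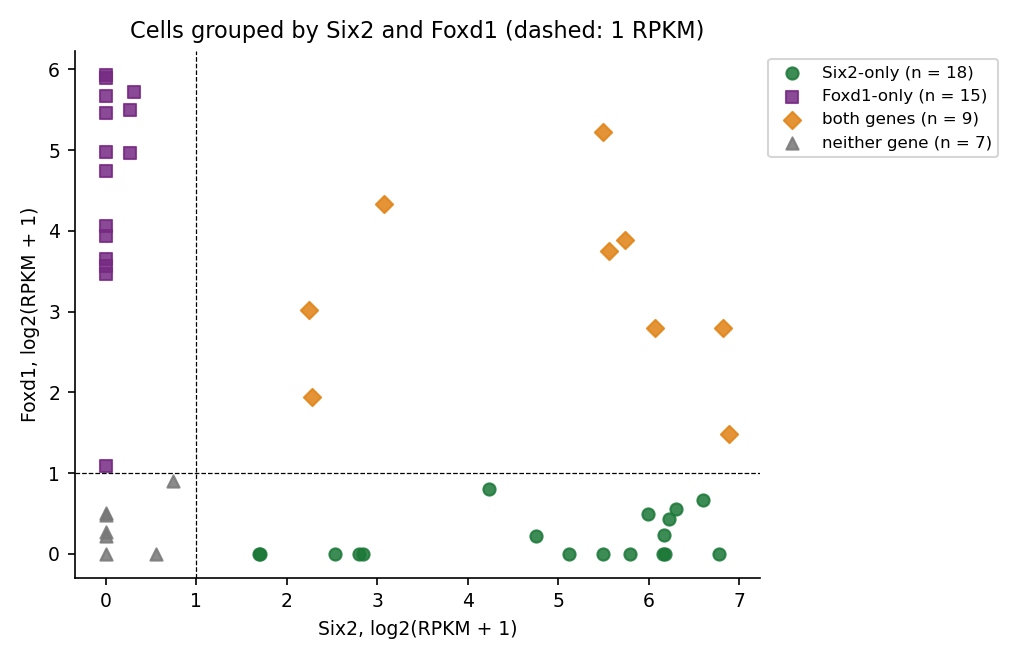
Six2 on the x axis and Foxd1 on the y axis, both as log2(RPKM + 1), for all 49 cells; each symbol is a cell, its shape and colour give its group, and the dashed lines mark 1 RPKM. The 18 Six2-only cells lie along the bottom and the 15 Foxd1-only cells along the left side, with 9 cells holding both genes and 7 holding neither.

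The groups were sequenced to a similar relative depth, estimated from the steps between low values as a multiple of that of the median cell. It was 0.699 to 1.52 in Six2-only cells and 0.749 to 1.27 in 14 of the Foxd1-only cells, while Foxd1-only cell 7 stood apart at 0.0462, a library whose values are coarse. Genes at 1 RPKM or more numbered 4178 to 6469 per cell with a median of 4960.5 in Six2-only cells, and 3862 to 6330 with a median of 5232 in Foxd1-only cells. Of the markers of other cell types, each endothelial, macrophage or erythroid gene reached 1 RPKM in fewer than 5 of the 33 cells. Of 8 endothelial genes, Cdh5, Pecam1, Esam and Tek were listed at 0 in all 33. At least 1 endothelial gene reached 1 RPKM in 2 of 18 Six2-only and 3 of 15 Foxd1-only cells. Summed endothelial levels were 0 to 15.6 RPKM in Six2-only and 0 to 39.9 RPKM in Foxd1-only cells. Summed macrophage levels were 0 to 124 RPKM in Six2-only and 0 to 1.56 RPKM in Foxd1-only cells. At least 1 of 5 neural genes reached 1 RPKM in 13 of 18 Six2-only and 7 of 15 Foxd1-only cells, and their summed level was 0.155 to 101 RPKM in Six2-only cells and 0 to 279 RPKM in Foxd1-only cells. At least 1 ureteric bud gene reached 1 RPKM in 3 of 18 Six2-only and 9 of 15 Foxd1-only cells, where Gata3 was found in 8. Of the 11 bud genes in the table, 10 reached 1 RPKM in Foxd1-only cell 25 and 3 in Six2-only cell 12, and their summed level was 0 to 163 RPKM in Six2-only cells and 0 to 817 RPKM in Foxd1-only cells. The part of these markers in the differences was not tested. At least 1 gene of the Y chromosome reached 1 RPKM in all 49 cells, although the labels give both sexes.

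A gene was counted when it reached 1 RPKM in at least 5 of the 33 cells, which left 9268 genes beside Six2 and Foxd1. A difference is the mean of log2(RPKM + 1) in Six2-only cells minus that in Foxd1-only cells, and a gene is called past the fold at a difference of 2 or more in size, which is 4-fold on that scale and more for low genes. At that size 161 genes (1.74% of those counted) were higher and 163 (1.76%) were lower in Six2-only cells, and without the shallow cells 3 and 7 the counts were 149 and 176. The counts rest on the pseudocount of 1 RPKM (620 and 610 at 0.1 RPKM, 10 and 21 at 10 RPKM) and grew to 416 and 374 without cells that held 50% or more of the G2/M genes. The share of cells at 1 RPKM or more was at least 50 percentage points higher for 51 genes (0.55%) and at least 50 points lower for 95 genes (1.03%). Both sizes were passed by 39 genes (0.421%) that were higher and by 75 (0.809%) that were lower. Over all genes counted the median difference was 0.05, with 4890 genes above 0 and 4378 below, so the set of genes as a whole lay close to even. The 15 genes with the largest differences in each direction among those past both sizes are named below.

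**Figure D2:**
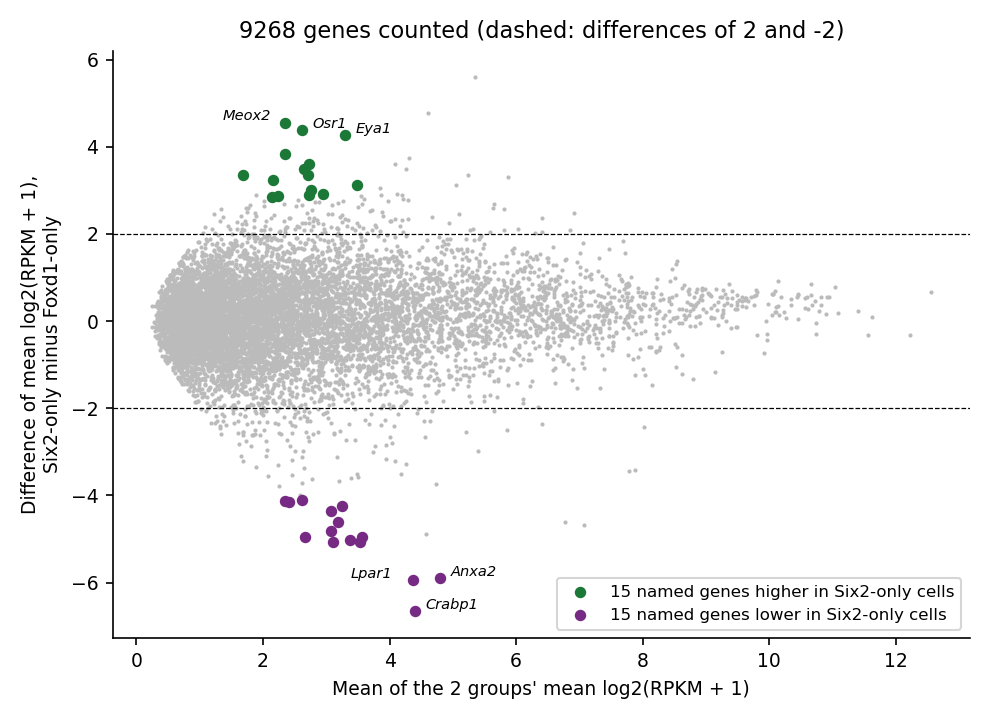
Difference of mean log2(RPKM + 1), Six2-only minus Foxd1-only (y axis), against the mean of both groups' mean levels (x axis), for the 9268 genes counted; each point is a gene, green points are the 15 named genes higher and purple points the 15 named genes lower in Six2-only cells, and dashed lines mark differences of 2 and -2. The purple points reach -6.66 (Crabp1) and the green ones 4.55 (Meox2).

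RefSeq promoter windows show the DNA at the start of genes that separated the cells most. They cover 250 bases before to 50 after a gene's start (build GRCm38.p6) and were found for 22 of the 30 named genes. The 4 printed here, chosen after the values were seen, belong to the genes with the largest difference in each direction among those with exactly 1 window, taken 2 to a direction: Meox2 and Phf19, higher in Six2-only cells, and Crabp1 and Anxa2, lower in them. They lie at chr12:37108290-37108589 (Meox2, plus strand), chr2:34913927-34914226 (Phf19, minus strand), chr9:54764498-54764797 (Crabp1, plus strand) and chr9:69453433-69453732 (Anxa2, plus strand). Each is read 5′ to 3′ along its gene, and capitals mark motif matches on either strand.
Meox2: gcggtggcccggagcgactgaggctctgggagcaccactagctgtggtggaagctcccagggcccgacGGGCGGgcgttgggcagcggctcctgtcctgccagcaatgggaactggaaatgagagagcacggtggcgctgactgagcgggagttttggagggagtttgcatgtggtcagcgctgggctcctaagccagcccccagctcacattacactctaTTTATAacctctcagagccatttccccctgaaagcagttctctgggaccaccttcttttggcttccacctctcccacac
Phf19: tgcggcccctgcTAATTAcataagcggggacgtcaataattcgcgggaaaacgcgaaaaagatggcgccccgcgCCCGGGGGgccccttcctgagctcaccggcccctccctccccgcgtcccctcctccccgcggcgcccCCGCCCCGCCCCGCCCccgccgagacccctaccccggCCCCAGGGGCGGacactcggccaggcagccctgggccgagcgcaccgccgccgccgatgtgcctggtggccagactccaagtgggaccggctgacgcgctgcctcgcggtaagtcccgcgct
Crabp1: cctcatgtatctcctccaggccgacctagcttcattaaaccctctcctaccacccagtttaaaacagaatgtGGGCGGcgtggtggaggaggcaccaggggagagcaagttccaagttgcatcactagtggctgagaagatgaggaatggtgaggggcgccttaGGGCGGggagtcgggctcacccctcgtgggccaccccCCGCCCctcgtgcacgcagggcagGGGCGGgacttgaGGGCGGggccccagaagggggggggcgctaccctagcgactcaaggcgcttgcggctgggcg
Anxa2: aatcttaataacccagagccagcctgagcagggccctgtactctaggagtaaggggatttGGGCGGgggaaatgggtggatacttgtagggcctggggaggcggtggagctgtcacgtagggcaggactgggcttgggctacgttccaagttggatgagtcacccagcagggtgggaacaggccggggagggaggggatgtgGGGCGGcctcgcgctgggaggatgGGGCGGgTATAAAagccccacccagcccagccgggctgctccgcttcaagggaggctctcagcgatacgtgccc

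Each motif was searched on both strands. For transcription factor families these were CCCNNGGG for the Ebf family, the shorter TTGGCA for nuclear factor I proteins and CCGGAAGT for Ets factors. Homeodomain proteins are known to bind TAATTA, and forkhead proteins a core that was searched as TGTTTAC. Of the general promoter elements, the TATA box was searched as TATAAA. The other two were the CCAAT box, by the letters of its name, and the GC box, whose letters are GGGCGG. These 3 general elements were added after a first search with 5 motifs had matched few windows, and the Ebf and nuclear factor I motifs are shorter forms of those searched first, also set with the results in view. Where a gene has several windows the first listed was searched, a nuclear factor I match can overlap a CCAAT box, and matches of the Ebf motif and GC boxes can overlap. A GC box was found in 8 of 11 windows of genes higher and in 4 of 11 windows of genes lower in Six2-only cells, against 67.7% of the 7348 counted genes with a window. A TATA box was found in 1 of 11 and in 2 of 11, against 6.27% of counted genes, and a CCAAT box in 3 of 11 and in 3 of 11, against 40.4%. The Ebf motif matched 2 and 1 windows of the same groups of 11, against 17.3%, the nuclear factor I motif 2 and 0, against 10.7%, and the homeodomain motif 1 and 1, against 2.16%. The Ets and forkhead motifs matched 0 of the 22 windows, where 10.2% and 2.41% of counted genes held them. These matches describe letters within the windows and nothing beyond them.

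Of the 15 named genes higher in Six2-only cells, those with the largest differences were the transcription regulators Meox2, Osr1 and Eya1; Crym and Tpm2, described further on, had larger differences but did not pass the share difference. Meox2, a homeobox transcription factor gene (gene ID 17286, chromosome 12, 37835133 to 37906115 in mm9), had a lowest level of 0, a median of 75.9 and a highest level of 264 RPKM in Six2-only cells, and 0, 0 and 0.309 RPKM in Foxd1-only cells. It reached 1 RPKM in 13 of 18 Six2-only cells (72.2%, exact 95% binomial interval 46.5 to 90.3%) and in 0 of 15 Foxd1-only cells (interval 0 to 21.8%), a difference of 4.55. The ranges overlap because Meox2 was below 1 RPKM in 5 Six2-only cells, while the other 13 lay above every Foxd1-only cell. Osr1, a zinc-finger transcription factor gene needed for the formation of the metanephric mesenchyme (gene ID 23967, chromosome 12, 9581248 to 9588306), had a median of 67.6 and a highest level of 201 RPKM in Six2-only cells, and a median of 0 and a highest level of 4.27 RPKM in Foxd1-only cells. It was found in 15 of 18 Six2-only and 3 of 15 Foxd1-only cells, a difference of 4.38. Eya1, a transcriptional coactivator that partners with Six2 (gene ID 14048, chromosome 1, 14159039 to 14300280), had 3.91, 43.9 and 177 RPKM as lowest, median and highest level in Six2-only cells, and 0, 0.333 and 72.4 RPKM in Foxd1-only cells. All 18 Six2-only cells held it (interval 81.5 to 100%), against 3 of 15 Foxd1-only cells (interval 4.33 to 48.1%), and those 3 were cells 7, 14 and 41. The difference of Eya1 was 4.26. The intervals given here and below cover counting error over cells only. The named genes were chosen by these same shares, so a gap between the groups' intervals is no added support.

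Spock2, which encodes the extracellular proteoglycan testican-2 (gene ID 94214, chromosome 10, 59569005 to 59596661), separated the groups without overlap. Its lowest, median and highest levels were 0.319, 17.2 and 50.3 RPKM in Six2-only cells, against 0, 0 and 0.104 RPKM in Foxd1-only cells, a difference of 3.34. Spock2 reached 1 RPKM in 16 of 18 Six2-only cells and in 0 Foxd1-only cells. The remaining Six2-only cells, cells 4 and 36, had 0.319 and 0.346 RPKM. For these cells the lack of overlap rests on values below the limit of 1 RPKM. Of the 9268 genes counted, 3 (0.0324%) had no overlap between the groups: Spock2, and on the other side Lgals1, which encodes the sugar-binding protein galectin-1, and Tmsb4x, which encodes the actin-binding peptide thymosin beta 4. Lgals1 and Tmsb4x are named because of that result. Lgals1 had 2.14, 25.5 and 217 RPKM as lowest, median and highest level in Six2-only cells and 253, 508 and 1704 RPKM in Foxd1-only cells, a difference of -4.60. Tmsb4x had 0, 112 and 316 RPKM in Six2-only cells and 341, 707 and 7192 RPKM in Foxd1-only cells, a difference of -3.42. Both were at 1 RPKM or more in most Six2-only cells, 18 of 18 for Lgals1 and 17 of 18 for Tmsb4x, so the groups differed in the level of these genes.

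The other named genes on the Six2-only side have roles in chromatin, matrix, signalling and transport. Phf19, a Polycomb-associated chromatin gene, had a difference of 3.82 and was found in 15 of 18 Six2-only and 1 of 15 Foxd1-only cells. Gfra1, the co-receptor for Gdnf, had a difference of 3.23 and was found in 14 of 18 Six2-only and 1 of 15 Foxd1-only cells, the last being cell 25, the cell that held ureteric bud genes. Has2, which makes hyaluronan, had a difference of 3.36, found in 16 of 18 Six2-only and 3 of 15 Foxd1-only cells. The transcriptional co-regulator gene Cited2 stood at 2.87, the growth factor binding protein gene Igfbp5 at 2.88 and the surface glycoprotein gene Tpbg at 2.85. Tom1l1, an endosomal adaptor gene (3.60), Prkag1, a regulatory subunit of AMP-activated kinase (3.50), Med21, a Mediator subunit (3.12), Ctdspl, a phosphatase gene (3.00), and Dync2li1, a subunit of the ciliary dynein (2.93), complete the 15. The Foxd1-only medians of all 15 genes lay between 0 and 0.333 RPKM, so most Foxd1-only cells had little or none of each. The method keeps no strand, so reads of Tom1l1 and Cox11, Has2 and Has2as, Med21 and Gm6654, and Tpbg and 9330154J02Rik, which overlap in the table, cannot be told apart.

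Among the genes lower in Six2-only cells, Crabp1 had the largest difference of any gene counted. Crabp1 encodes a cellular retinoic acid binding protein (gene ID 12903, chromosome 9, 54612615 to 54620916 in mm9) and had a lowest level of 0, a median of 0 and a highest level of 231 RPKM in Six2-only cells, against 6.68, 367 and 875 RPKM in Foxd1-only cells. It was found in 4 of 18 Six2-only cells (22.2%, interval 6.41 to 47.6%) and 15 of 15 Foxd1-only cells (interval 78.2 to 100%), a difference of -6.66. Lpar1, a receptor for lysophosphatidic acid (gene ID 14745, chromosome 4, 58448124 to 58566363), had 0, 0.384 and 62.4 RPKM in Six2-only cells and 24.5, 230 and 391 RPKM in Foxd1-only cells, a difference of -5.95. Anxa2, a calcium-dependent membrane-binding protein gene (gene ID 12306, chromosome 9, 69301490 to 69339592), had 0, 0.442 and 94.8 RPKM in Six2-only cells and 70.3, 214 and 589 RPKM in Foxd1-only cells, a difference of -5.91. For all 3 genes every Foxd1-only cell was above the Six2-only median, and the overlap came from a few Six2-only cells. Crabp1 in Six2-only cells reached 231 RPKM in cell 23, against 29.8, 28.4 and 1.16 RPKM for cells 6, 48 and 51.

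The 15 named genes that were lower in Six2-only cells included transcription factor genes, whose share among all genes counted was not computed. Fli1, an Ets factor gene, was found in 3 of 18 Six2-only and 15 of 15 Foxd1-only cells with a difference of -5.07. The nuclear factor I genes Nfib and Nfia were found in 5 of 18 Six2-only and 15 of 15 Foxd1-only cells, and in 2 of 18 Six2-only and 15 of 15 Foxd1-only cells, with differences of -5.03 and -4.15. Ebf1 had a highest level of 2.11 RPKM in Six2-only cells, in 1 cell of 18 above 1 RPKM, and a median of 68.2 and a highest level of 236 RPKM in Foxd1-only cells, in 14 of 15. Its difference was -4.96. Mecom, a zinc-finger factor gene, was found in 4 of 18 Six2-only and 15 of 15 Foxd1-only cells, a difference of -4.62. Ldb2, a cofactor of LIM domain proteins (-4.95), and Dnm3os, a noncoding RNA gene that hosts miRNAs (-4.81), overlap Gm3364 and Dnm3 in the table. The group also held the receptor gene Pdgfra (-4.13), found in 1 of 18 Six2-only and 14 of 15 Foxd1-only cells, and the collagen genes Col3a1 (-4.36) and Col1a1 (-4.10). Asb4, part of a ubiquitin ligase (-5.06), and Rgs5, a regulator of G protein signalling known from pericytes (-4.24), were more uneven within the Foxd1-only cells, each found in 13 of 15.

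**Figure D3:**
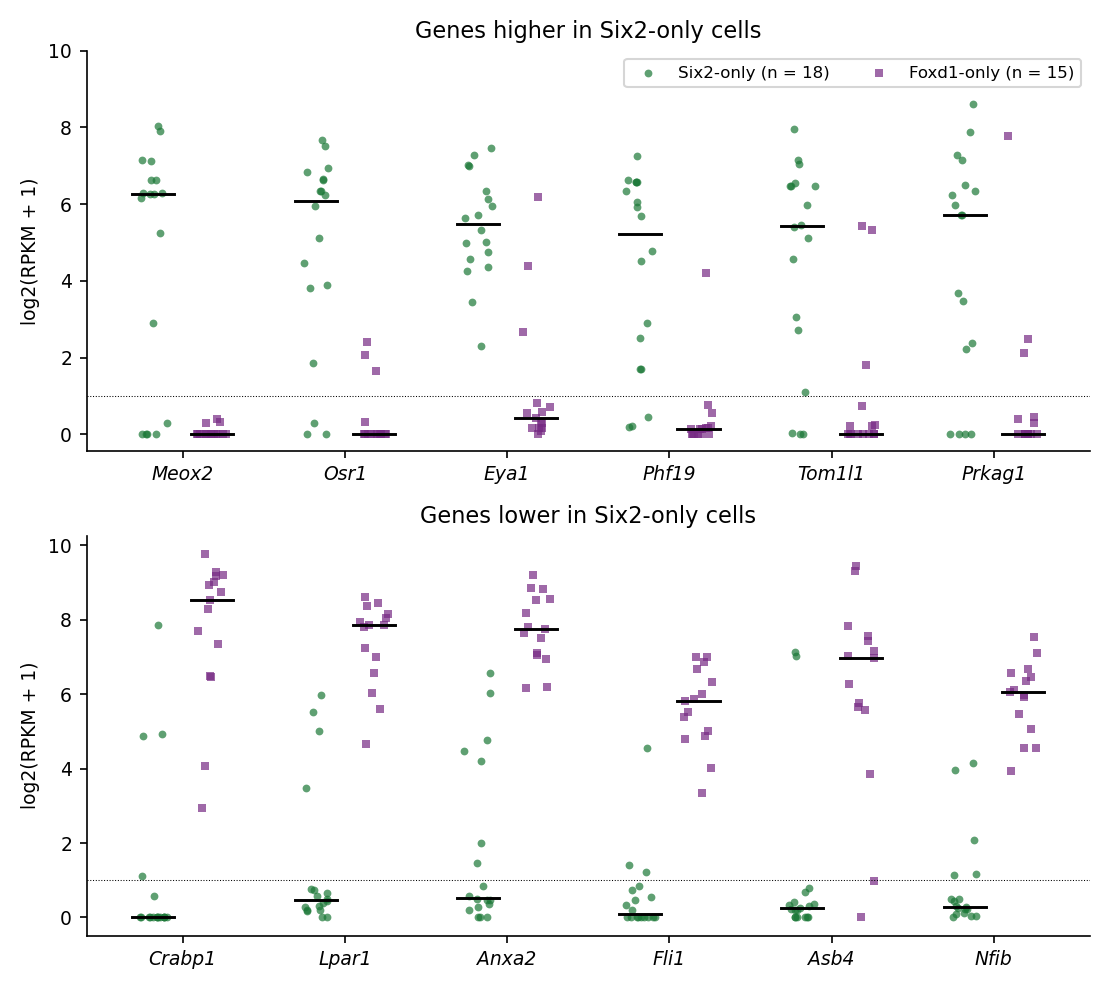
Levels as log2(RPKM + 1) (y axis) of the first 6 named genes of each direction (x axis), with each point a cell, Six2-only cells in green and Foxd1-only cells in purple, spread sideways to be seen; the bar is the median and the dotted line marks 1 RPKM. The Foxd1-only cells carry Crabp1, Lpar1, Anxa2, Fli1 and Nfib in 15 of 15, and 2 to 7 of the 18 Six2-only cells lie above 1 RPKM for each of the lower genes.

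The nephron progenitor list held 17 genes of the table beside Six2, of which 15 were counted. Past the fold were 7, all higher in Six2-only cells, against 1.74% of all genes counted, and 0 were lower. With a pseudocount of 10 RPKM it was 4. The list was chosen with earlier results of these data known, so these counts are a description. The 7 were Crym (5.59), Meox2, Osr1, Eya1, Spock2, Itga8, an integrin that receives nephronectin from the bud (2.42), and Cited1, a co-regulator of the cap mesenchyme (2.39). The median difference of the 15 genes was 1.83, against 0.05 over all genes. Cited1 was found in 8 of 18 Six2-only cells and 0 of 15 Foxd1-only cells, with a highest level of 281 RPKM. The transcription factor genes Uncx and Pax2 were found in 9 and 3 of 18 Six2-only cells and in 0 of 15 Foxd1-only cells. Meox2, Spock2, Cited1 and Uncx were counted through Six2-only cells alone, so their direction is tied to their being counted. Osr1 and Eya1 each reached 1 RPKM in 3 of 15 Foxd1-only cells, so without Six2-only cells they would not have been counted either. Other members were short of the fold. Wt1, needed for survival of the mesenchyme, had medians of 45.6 RPKM in Six2-only and 43.5 RPKM in Foxd1-only cells (difference -0.15). Sall1, another early kidney regulator, had medians of 71.1 RPKM in Six2-only and 20.8 RPKM in Foxd1-only cells (1.71) and was found in 18 of 18 Six2-only and 11 of 15 Foxd1-only cells. The homeobox gene Meox1 stood at 1.83, Gdnf at 1.18, Uncx at 1.14, Traf1, a signalling adaptor gene, at 1.13, Six4, a relative of Six2, at 0.74 and Tmem100 at 0.17. Pax2 and Fgf20 were not counted, and Fgf20 was found in 0 of 18 Six2-only and 2 of 15 Foxd1-only cells.

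Crym, which drives the reporter, needs its own account, because the labels describe its domain at this stage as that of Six2. Crym had a lowest level of 2.74, a median of 521 and a highest level of 1383 RPKM in Six2-only cells, and 0.999, 1.96 and 358 RPKM in Foxd1-only cells. At 10 RPKM or more it was found in 16 of 18 Six2-only cells, all but cells 6 and 8, and in 3 of 15 Foxd1-only cells, which were cells 7, 41 and 42. The dissection followed this reporter, and its part in these shares was not tested.

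The stroma list held 20 genes of the table beside Foxd1, of which 18 were counted. Past the fold were 12, all lower in Six2-only cells, against 1.76% of all genes counted, and the median difference was -2.55. With a pseudocount of 10 RPKM 3 were past the fold. This list was also chosen with earlier results of these data known. The 12 include Ebf1, Pdgfra, Col1a1, Col3a1, Col1a2 (-4.04), the chemokine gene Cxcl12 (-4.89), the retinoic acid synthesis gene Aldh1a2 (-3.51), the PDGF receptor gene Pdgfrb (-2.54), the Wnt modulator gene Sfrp1 (-2.32), the transcription factor gene Snai2 (-2.59), the giant cadherin gene Fat4 (-2.56) and Ecm1 (-2.35). Of these, Ebf1, Pdgfra, Col1a1 and Col3a1 reached 1 RPKM in 1, 1, 3 and 4 of 18 Six2-only cells. That is fewer than the 5 cells needed, so without Foxd1-only cells they would not have been counted, and their direction is tied to that. Cxcl12 had medians of 1.86 RPKM in Six2-only and 134 RPKM in Foxd1-only cells, and was found in 10 of 18 Six2-only and 15 of 15 Foxd1-only cells. Meis1 and Meis2, homeobox cofactors used as stromal markers, were at 1 RPKM or more in every cell of both groups. Meis1 had medians of 92.0 RPKM in Six2-only and 292 RPKM in Foxd1-only cells (-1.53), and Meis2 had 46.1 RPKM in Six2-only and 94.0 RPKM in Foxd1-only cells (-1.13), so what differed was their level. The remaining counted members were the retinoic acid receptor gene Rarb (-1.39), the guidance gene Ntn1 (-1.01) and the transcription factor genes Tbx18 (-0.62) and Tcf21 (-0.43). Dcn and Lum, matrix proteoglycan genes, were not counted, and were found in 0 and 1 of 18 Six2-only cells and in 2 and 1 of 15 Foxd1-only cells.

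**Figure D4:**
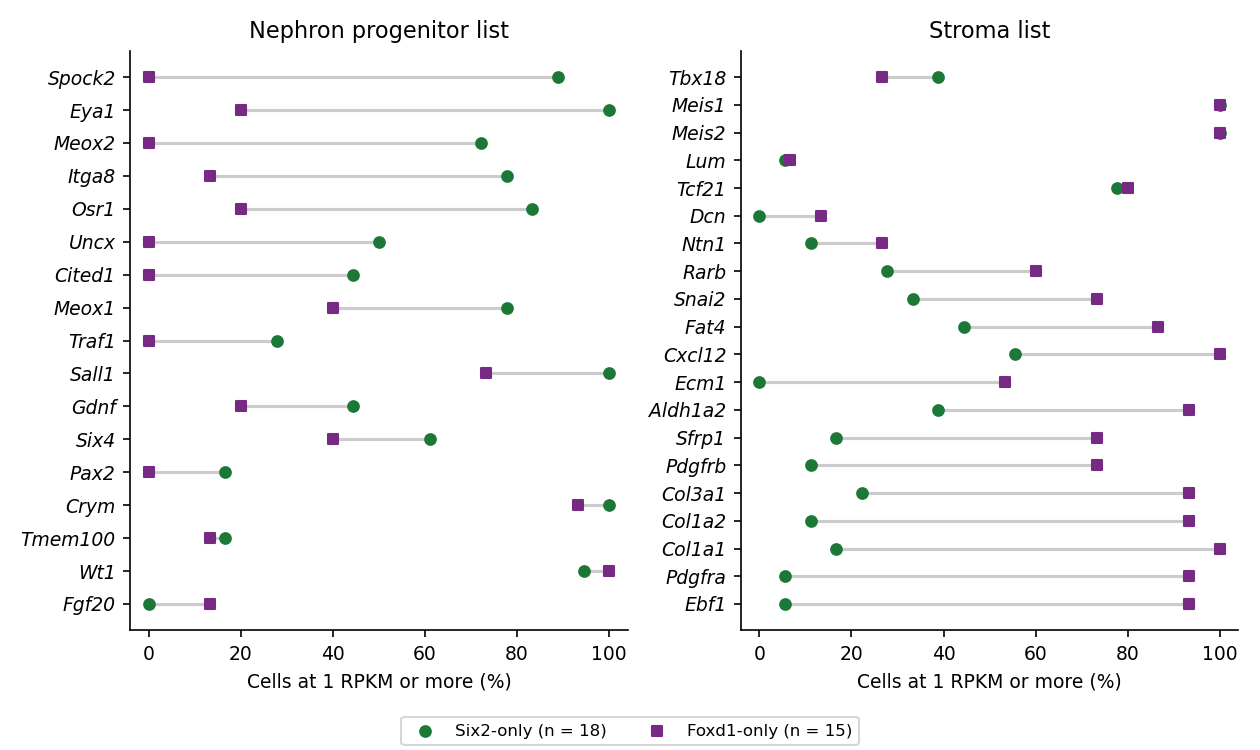
Share of cells at 1 RPKM or more in percent (x axis) for each gene of the nephron progenitor and stroma lists (y axis), with Six2-only cells as green circles and Foxd1-only cells as purple squares joined by a line. Meox2, Spock2, Uncx and Cited1 stand at 0% in Foxd1-only cells, while Meis1 and Meis2 stand at 100% in both groups.

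Gdnf and its controls showed 4 of 12 counted genes higher past the fold, against 1.74% of all genes counted, and 0 lower. They were Eya1, Gfra1, Itga8 and Robo2, a receptor that restrains the Gdnf domain (2.41, with medians of 29.9 RPKM in Six2-only and 2.81 RPKM in Foxd1-only cells). Gdnf itself reached 1 RPKM in 8 of 18 Six2-only and 3 of 15 Foxd1-only cells (difference 1.18), short of the fold. In the retinoic acid list 0 of 12 counted genes were higher and 4 were lower, against 1.76% of all genes: Crabp1, Aldh1a2, Ecm1 and Dhrs3, a retinaldehyde reductase gene (-2.43, with medians of 249 RPKM in Six2-only and 638 RPKM in Foxd1-only cells). Crabp2, a second binding protein, was found in every cell of both groups and had a difference of -1.23, and the receptor gene Rarb had -1.39. Aldh1a2, Ecm1 and Rarb were also counted in the stroma list, so their values appear in both. Of the fibroblast growth factor genes, 2 of 15 were past the fold, both higher in Six2-only cells, against 1.74% of all genes: the receptor gene Fgfr2 (2.03; 17 of 18 Six2-only and 5 of 15 Foxd1-only cells) and Dusp6, a phosphatase induced by this pathway (2.29). Fgfr1 (0.61) and the feedback gene Spry2 (-0.05) were found in most cells of both groups.

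In the lists that follow, the shares to compare are again 1.74% of all genes higher and 1.76% lower. Of 17 Wnt genes counted, Rspo1, which raises Wnt signalling, was higher (2.24; 10 of 18 Six2-only and 1 of 15 Foxd1-only cells) and Sfrp1 was lower. Of 22 genes of the BMP and TGF-beta list 0 passed the fold, the nearest being Tgfbr3 at -1.81. Of 30 matrix genes, 2 were higher (Spock2 and the thrombospondin gene Thbs1, 2.29) and 6 were lower, namely Col1a1, Col1a2, Col3a1, Col5a2 (-2.75), the fibronectin gene Fn1 (-3.67) and the fibulin gene Efemp1 (-3.21). Of the 30 differences 22 were below 0 and 8 above, with a median of -0.90 against 0.05 over all genes. Vcan (1.61), Sparc (0.84) and Mfap2 (-1.33) were found in every cell of both groups. Guidance genes showed Robo2 higher and the ephrin receptor gene Epha7 (-2.72) and the semaphorin gene Sema6a (-2.11) lower, of 19 counted. In the Fat4 and Hippo list only Fat4 of 14 passed the fold, and among 13 imprinted growth genes only the transcription factor gene Plagl1 did (-2.22).

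Contractile genes split. Of 8 rows counted, Tpm2, a tropomyosin gene, was higher (4.77, with medians of 134 RPKM in Six2-only and 2.09 RPKM in Foxd1-only cells), as was Des, which encodes desmin (2.25). Rgs5, the other tropomyosin gene Tpm1 (-2.84) and Cald1, which encodes caldesmon and stands on 2 rows (-3.56 and -3.18), were lower. The smooth muscle gene Acta2 was listed at 0 in all 33 cells. Of 30 Hox genes counted, 2 were higher, Hoxb1 (2.57, found in 9 of 18 Six2-only and 0 of 15 Foxd1-only cells) and Hoxb9 (2.04). That compares with 1.74% of all genes, and 0 Hox genes were lower. Hoxb1 was counted through Six2-only cells alone. The difference of Hoxb9 turned to -0.24 without cells that held 50% or more of the G2/M genes. Hoxa11 and Hoxd11, needed for metanephric induction, stood at 1.78 and 1.06.

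DNA replication genes lay mostly above 0 on this scale. Of 42 G1/S genes, 35 had a difference above 0, against 4890 of all 9268 genes counted. Their median difference was 0.91, against 0.05 over all genes counted. Per cell the groups overlapped, with 14 to 40 of these genes at 1 RPKM or more in Six2-only cells (median 31) and 16 to 35 in Foxd1-only cells (median 23). Of the 42 genes, 3 passed the fold, all higher, against 1.74% of all genes: Prim1, a DNA primase subunit (2.77), Cdc45 (2.49) and Rrm2 (2.25). Of 53 G2/M genes 0 did, their median difference was 0.32, and cells with 50% or more of those genes numbered 9 of 18 Six2-only and 8 of 15 Foxd1-only cells. Glycolysis genes had 3 of 16 higher, against 1.74% of all genes: Hk2 (2.90), Eno3 (2.60) and the glucose transporter gene Slc2a1 (2.12). Of 10 housekeeping and 10 stress response genes 0 passed the fold in either direction, with median differences of 0.35 and 0.03. Of the neural (2 counted), early nephron (2), gonad and mesothelium (1) and Y-linked (4) genes, 0 passed the fold. The only counted ureteric bud gene, Gata3, was lower (-2.29), at 1 RPKM or more in 0 of 18 Six2-only and 8 of 15 Foxd1-only cells. It was counted through Foxd1-only cells alone, so its direction is tied to its being counted and says nothing of the bud list.

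The 30 named genes can be counted cell by cell, with the 15 higher genes called the Six2 side and the 15 lower genes the Foxd1 side. In the groups that chose them the counts are fixed by that choice and are given as a description. Six2-only cells held 11 to 14 Six2-side and 0 to 13 Foxd1-side genes, and Foxd1-only cells held 0 to 7 Six2-side and 11 to 15 Foxd1-side genes. Foxd1-only cell 41 held 7 Six2-side beside 15 Foxd1-side genes, and the shallow cell 7 held 5 and 15. Six2-only cells 23 and 48 stood out, with 13 and 9 Foxd1-side genes. These 2 cells held 22 of the 49 Foxd1-side detections among the 270 possible in Six2-only cells, and with cell 6 the number is 28. Cells 23 and 48 had 6275 and 6469 genes at 1 RPKM, above the group's median of 4960.5, and relative depths of 1.06 and 0.723. Both held 48 or more of 53 G2/M genes. Six2-only cells 12 and 33 held 51 and 52 of those genes, with 6138 and 5704 genes at 1 RPKM, and 0 Foxd1-side genes. The part of these values in the mixed profile of cells 23 and 48 was not tested.

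Cells outside both groups took no part in choosing the genes. The 9 cells with both Six2 and Foxd1 held 7 to 13 Six2-side genes, with a median of 12, and 3 to 14 Foxd1-side genes, with a median of 13. At a limit of 10 genes of each side, set after the values were seen, 6 of 9 such cells held both sets. Cell 3, also among the 9, was a shallow library with a relative depth of 0.0346, and held 8 Six2-side and 14 Foxd1-side genes. These 9 cells had a median of 5670 genes at 1 RPKM or more, against 4960.5 in Six2-only and 5232 in Foxd1-only cells, and 7 of 9 held 50% or more of the G2/M genes. The part of these values in the counts of both sets was not tested. Meox2 was found in 7 of those 9 cells and Crabp1 also in 7. The 7 cells with neither gene fell on both sides: cells 22, 39 and 45 held 12 to 14 Foxd1-side genes with 3 or 4 of the Six2 side, and cells 32 and 44 held 12 and 8 Six2-side genes with 1 Foxd1-side gene each. Cell 38 held 10 Six2-side and 14 Foxd1-side genes, and cell 27 held 2 and 6 of them, beside 8 endothelial genes. No doublet caller was run, and the submitters recorded under a microscope which chambers held single cells.

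**Figure D5:**
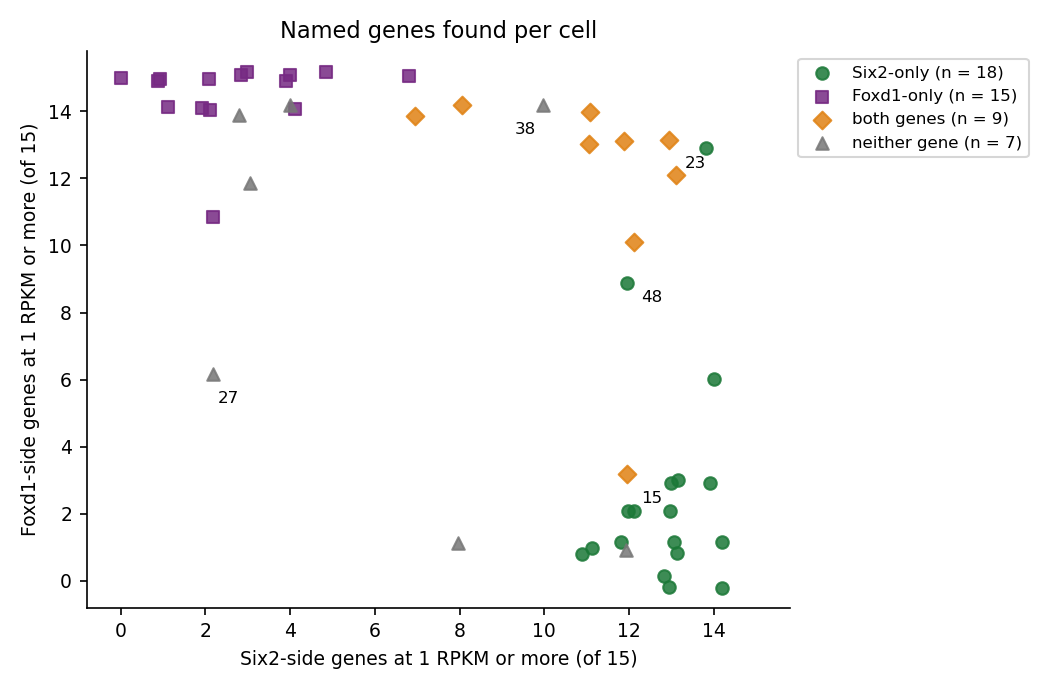
Number of the 15 Six2-side genes (x axis) and 15 Foxd1-side genes (y axis) at 1 RPKM or more in each cell, with symbols as in the plot of Six2 against Foxd1 and points moved slightly so that they can be seen apart. The Six2-only cells lie at the lower right except cells 23 and 48, the Foxd1-only cells at the upper left, and 6 of 9 cells with both genes at the upper right.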

How the data were processed

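RNA of 49 captured cells was amplified with the SMARTer chemistry and made into Nextera XT libraries, per the labels' protocols; these chemistries keep no strand and no molecular identifiers. Per the file headers, the authors deposited RPKM; their table also gives the authors' count of cells above 3 RPKM per gene. Per the submitters' processing notes, TopHat 1.4.1, DESeq and mm9 were used, in roles they do not state. The read counter, the annotation and the number from which starts count were not given in the sources used here. All 13093 genes of the table exceed 3 RPKM in at least 1 cell, which was checked on the values. 0 columns of values were left unused. Total reads are unknown, so relative depth was taken from the steps between low values, and intervals on shares (Clopper-Pearson, 95%) cover counting error only.

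Cells were grouped by Six2 and Foxd1 at 1 RPKM. Differences use log2(RPKM + 1), a pseudocount of 1, which understates the change of low genes. Genes were counted at 1 RPKM in at least 5 of the 33 cells. Named are the 15 genes per direction with the largest difference among those past a difference of 2 and a share difference of 50 points, and members of the lists: the nephron progenitor and stroma lists, and for other lists those past the fold and up to 4 detected in most cells. Exceptions, named after their values were seen, are Lgals1, Tmsb4x and genes cited for 1 cell or for coming nearest the fold. The members and lists were chosen with earlier results of these data known. A member of the nephron progenitor list is not reported here. No cell was removed and no doublet caller was run. Alternatives are in the closing section. Scripts (Python 3.11.15, pandas 2.3.3, scipy 1.17.1) were first tested on simulated data.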

Additional observations from a re-analysis of the deposited data

Results flagged for a closer look

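Among the 9 cells with both Six2 and Foxd1, cell 15 held 3 of the 15 Foxd1-side genes, while the other 8 held 10 to 14; a gap this wide, relative to the group's range, is what drew attention to it. Cell 15 had Foxd1 at 1.81 RPKM, the lowest of the 9 cells, Six2 at 117 RPKM and 12 Six2-side genes.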

How the results depend on the processing

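Of 364 genes followed under 13 alternatives, 67 were past the fold. A total of 51 gene values moved by more than the spread between cells, 26 with a pseudocount of 0.1 and 25 with one of 10, and 1 reversed: Hoxb9, at -0.24 without cells that held 50% or more of the G2/M genes. The counts past the fold were 620 higher and 610 lower with a pseudocount of 0.1, and 10 and 21 with one of 10, where the nephron progenitor list had 4 genes past the fold and the stroma list 3, and where only 3 higher and 14 lower genes would be named, so that the Six2-side median of 2 in cells with both genes and 0 in cells with neither is out of 3 genes, not 15. Without the cells rich in G2/M genes, 9 Six2-only and 7 Foxd1-only cells were left, and the counts were 416 and 374 past the fold and 194 and 153 past the share difference; the Six2-side median was 9 over the 2 cells left with both genes, and the medians over the 2 cells left with neither were 9.5 Six2-side and 1.5 Foxd1-side genes, which are too few cells to show a shift. With groups set at 0.1 RPKM, 84 genes were past the share difference on the higher side, and the 1 cell left with neither gene held 10 Six2-side and 1 Foxd1-side genes. Without cells whose Crym level was that of the other group, an alternative chosen after seeing the data, 87 genes were. The genes of each side were chosen anew under each alternative. Fewer cells or another scale enter these alternatives by construction, and no other cause was tested. All 30 named genes had the same sign under every alternative, and 15 were past the fold under every one. Those on the higher side were Meox2, Osr1 and Eya1, and the rest were lower genes. Another detection limit or filter on low genes leaves each gene's difference as it is. Those alternatives therefore could not change these results. With groups set at 0.1 RPKM, 4 of the 15 higher and 13 of the 15 lower genes would be named again, and with a pseudocount of 10 it would be 3 and 12. Scaling by the median ratio gave 123 higher and 162 lower. Leaving out the shallow cells 3 and 7 gave 149 and 176, and leaving out cells with 3 or more ureteric bud or endothelial genes gave 174 and 175. No paired analysis was possible because all cells form 1 group and no label pairs them.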
